A study of Homo sapiens with 8 samples.

Results

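Interferon-stimulated genes are the genes that cells switch on in response to interferons, and 37 of them were followed here in medulloblastoma cells in which MYC was inhibited. The members were given as a list of symbols of textbook interferon targets, matched by Ensembl identifier through GENCODE. All 37 symbols were found among the 60668 genes listed in the series, and 19 passed the filter on low values (CPM, counts scaled to a common library size, above 1 in at least 4 of the 8 libraries), so that 19 of the 15222 genes tested are members. The libraries come from D283-OMO cells, a derivative of the human medulloblastoma line D283 Med that carries a doxycycline (DOX)-inducible transgene for Flag-tagged OMOMYC, a dominant-negative form of MYC that competes for its partner and its DNA sites. The transgene was delivered by lentivirus and the carriers were selected with hygromycin B, so both groups hold it. In the group OMO, 4 libraries were made from untreated cells. In the group OMO+DOX, 4 libraries were made from cells given DOX for 72 h. Among these libraries no line without the transgene was given DOX, so OMOMYC and the drug itself cannot be told apart here.

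Interferons are secreted proteins that bind paired receptors, whose attached kinases of the JAK family then phosphorylate STAT proteins. A complex that contains STAT2 and IRF9 binds the interferon-stimulated response element in target promoters, while paired STAT proteins bind the gamma-activated site. The targets include sensors of foreign RNA, the IFIT, OAS, MX and IFITM families that block steps of viral replication, and ISG15, a small protein that is attached to other proteins. Many of the same genes also have a basal level that does not need an interferon.

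RefSeq promoter windows of GRCh38.p14, from 250 bases before to 50 bases after the annotated start, were found for 29 of the 37 members. No window was found for IFIT2, MX2, OAS2, OASL, IRF7, DHX58, USP18 and IFITM2. The core of the interferon-stimulated response element, searched as GAAANNGAAA on both strands, was present in the windows of 20 of the 29 members, or 69%, and in those of 4.38% of all 27305 genes with a window. Of these 20 members, 6 were higher with DOX, 1 was lower, 4 were tested and not called, and 9 fell below the filter. Of all 29 members with a window, 8 were higher, 3 lower, 5 tested and not called, and 13 below the filter. The gamma-activated site, searched as TTCNNNGAA, was found in 9 of the 29, or 31%, against 9.38% of all genes, and of its 9 holders 3 were lower with DOX (IRF1, IFI35 and IFITM1), 1 was higher (IRF9), 1 was tested and not called (BST2) and 4 fell below the filter. Over all genes tested, with or without a motif, 38.5% were higher and 38.1% lower. Genes below the filter are not part of these shares. The E-box CACGTG, the site that MYC binds with its partner, was found in 2 of the 29, ISG20 and IRF9, or 6.9%, against 8.77% of all genes. Matches of the element and of the gamma-activated site shared bases in 5 members, BST2, EPSTI1, IFI27, IFITM1 and MX1. Such a match is a string of letters and not a measured binding site. To show what these windows look like, 3 are printed from 170 bases before the start through the first 20 bases after it. IFI6 had the largest rise of the members that hold the element, IFI35 the largest fall of those that lack it, and IFITM1 the largest fall of those that hold it. Capitals mark the element core in IFI6 (chr1:27672173-27672362, minus strand, with 3 matches) and in IFITM1 (chr11:313870-314059, plus strand, with 2 matches), and the gamma-activated site in IFI35 (chr17:43006614-43006803, plus strand, with 1 match).
IFI6: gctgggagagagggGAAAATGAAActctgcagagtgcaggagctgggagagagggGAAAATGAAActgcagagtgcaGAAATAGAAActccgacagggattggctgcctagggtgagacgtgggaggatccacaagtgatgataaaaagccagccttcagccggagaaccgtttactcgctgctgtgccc
IFI35: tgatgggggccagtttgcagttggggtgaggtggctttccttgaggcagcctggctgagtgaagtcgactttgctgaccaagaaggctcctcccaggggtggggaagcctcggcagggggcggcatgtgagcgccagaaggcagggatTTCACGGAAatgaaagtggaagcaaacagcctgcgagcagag
IFITM1: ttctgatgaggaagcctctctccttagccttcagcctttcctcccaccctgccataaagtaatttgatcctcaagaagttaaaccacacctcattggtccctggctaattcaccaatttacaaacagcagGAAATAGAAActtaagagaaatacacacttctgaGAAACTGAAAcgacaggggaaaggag

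**Figure D1:**
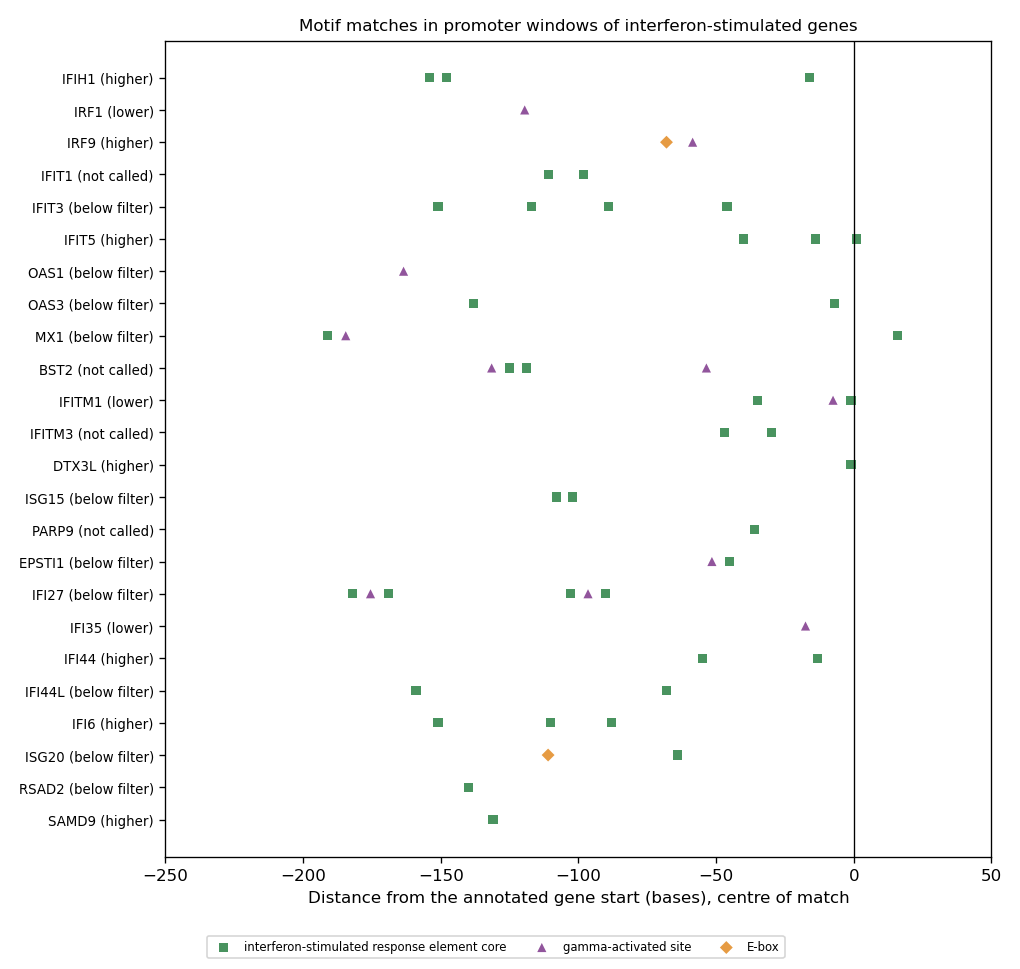
Distance in bases from the annotated gene start (x axis, 0 at the start) of each match to the element core (squares), the gamma-activated site (triangles) and the E-box (diamonds) in the RefSeq windows of the members with a match (y axis, with the result of the comparison in parentheses, "below filter" for members not tested). Where a member has several windows, each match is placed by the start of its own window, so the same site can appear more than once. The element core occurs in members of every result. The gamma-activated site occurs in the 3 members that were lower with DOX and in 6 others, of which 4 fell below the filter.

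Of the 19 members tested, 10 were higher in OMO+DOX, 3 were lower and 6 did not pass the test (edgeR's quasi-likelihood test, Benjamini-Hochberg adjusted p below 0.05). Over all genes tested, 38.5% were higher and 38.1% lower by the same rule, so more than 3 in 4 genes moved in this comparison, and the members are to be read against that. The log2 fold change (log2FC, OMO+DOX over OMO) had a median of 0.26 over the 19 members and 0.01 over all genes tested. Past the stricter limits of an FDR below 0.001 and a log2FC above 2 were 2 members, IFI6 and DHX58, where 4.38% of all genes tested passed; 0 of the 19 passed the same limits below -2, by edgeR or by DESeq2's Wald test, where 2.75% of all genes did by edgeR. DHX58 and IFIH1 exceeded 1 CPM only in their OMO+DOX libraries and were tested through these alone. OMO replicate 3 stood apart from its group for several members, and without it 12 members were higher, the added ones being IRF7 and BST2. In bulk RNA, a larger share of cells that express a gene and more RNA per cell cannot be told apart.

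**Figure D2:**
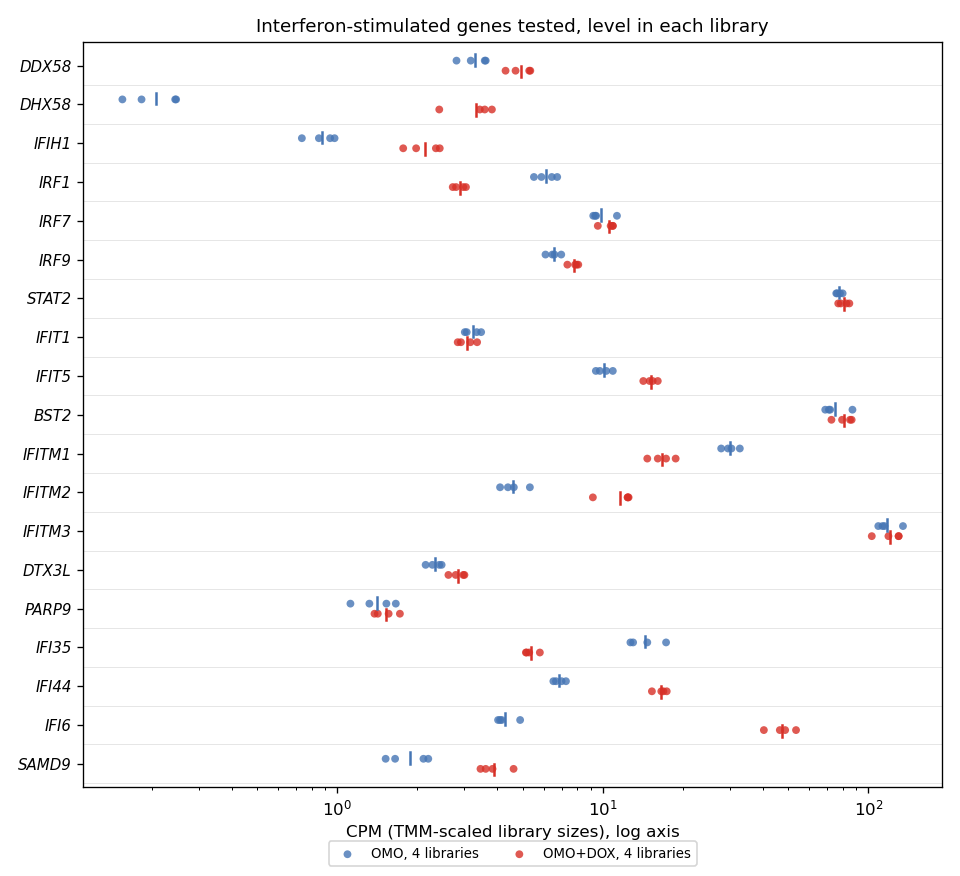
Level of the 19 members tested (y axis, grouped by role) in CPM with TMM-scaled library sizes (x axis, log scale), with 1 point per library and a vertical tick at the mean of each group of 4. The groups are far apart for DHX58 and IFI6, overlap for IFIT1, STAT2, IRF7, BST2, PARP9 and IFITM3, and lie in the opposite order for IFI35, IRF1 and IFITM1.

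The 3 cytosolic sensors that detect viral double-stranded RNA were all higher with DOX, where 38.5% of all genes tested were higher. Of the 3, DHX58 and IFIH1 passed the filter through their OMO+DOX libraries alone. DHX58, which encodes LGP2, a regulator of the other sensors, had 12, 8, 9 and 11 counts in OMO and 194, 97, 176 and 163 in OMO+DOX. Every OMO+DOX library thus exceeded every OMO library by a wide margin, from a level of 0.207 ± 0.0458 CPM (SD, n = 4) to 3.32 ± 0.621 CPM, with a log2FC of 4.00 ± 0.21 (SE; adjusted p = 7.9e-09), or 16.0-fold. It was the largest log2FC of all members tested, and it rests on few counts in OMO. IFIH1, which encodes MDA5, a sensor of long double-stranded RNA, stood at 0.939, 0.735, 0.976 and 0.852 CPM in OMO and at 2.43, 1.77, 2.35 and 1.98 CPM in OMO+DOX. Its groups did not overlap, and its log2FC was 1.29 ± 0.15 (adjusted p = 7.25e-06). DDX58, which encodes RIG-I, a sensor of short RNA with a triphosphate end, rose from 3.30 ± 0.385 to 4.90 ± 0.496 CPM (log2FC 0.57 ± 0.11, adjusted p = 6.1e-04). Per kilobase of exon, the order of the sensors changed: DHX58 was the lowest in OMO at 0.0539 CPM, below IFIH1 at 0.171 and DDX58 at 0.758, and in OMO+DOX it stood at 0.863, above IFIH1 at 0.417 and below DDX58 at 1.13.

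Among the 4 transcription factors of the response, 1 was higher, 1 lower and 2 were not called, beside 38.5% higher and 38.1% lower over all genes. STAT2, a part of the complex that binds the element, was among the most abundant members, at 80.0, 78.2, 75.7 and 76.3 CPM in OMO and 84.8, 78.7, 82.7 and 77.0 CPM in OMO+DOX. These groups overlap, with a log2FC of 0.06 ± 0.05 (adjusted p = 0.254). IRF9, the DNA-binding part of that complex, stood at 6.52 ± 0.369 CPM in OMO and 7.81 ± 0.321 in OMO+DOX without overlap (log2FC 0.26 ± 0.07, adjusted p = 0.00501). Of the exonic bases of IRF9, 48.4% also belong to AL136295.5, a gene annotated on the same strand with a log2FC of 0.26, so the split of reads between them is uncertain.

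IRF1, an activator that also works downstream of interferon gamma and NF-kB, was at 6.73, 5.50, 6.42 and 5.87 CPM in OMO and at 2.98, 2.72, 3.05 and 2.80 CPM in OMO+DOX. All 4 treated libraries were below all 4 untreated ones, and the level fell 2.12-fold (log2FC -1.08 ± 0.09, adjusted p = 6.21e-07). Exons of C5orf56 on the opposite strand cover 22% of its exonic bases, and C5orf56 itself had a log2FC of 0.32, the opposite direction. AC116366.3, also on the opposite strand, covers 6.01% of them and had a log2FC of -0.44, the same direction, from a mean of 13.3 to 9.84 CPM, above the level of IRF1. Whether counting used strand is not stated, so the part of either in the IRF1 counts is unknown. IRF7, which amplifies the response, was at 9.82 ± 0.992 CPM in OMO and 10.5 ± 0.632 in OMO+DOX and was not called (log2FC 0.10 ± 0.08, adjusted p = 0.285). Without OMO replicate 3, its log2FC was 0.17 and passed the test (adjusted p = 0.0338).

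The IFIT genes, whose products bind viral RNA ends and block translation, lie side by side on chromosome 10, and they did not move as 1 block. IFIT5 stood at 10.3, 10.9, 9.74 and 9.41 CPM in OMO and at 15.4, 16.1, 15.0 and 14.2 CPM in OMO+DOX, without overlap. Its log2FC was 0.59 ± 0.07 (adjusted p = 5.93e-06). IFIT1 (chr10:89392546-89406486 in GENCODE 29), the next gene upstream of IFIT5 (chr10:89414586-89421001), was at 3.23 ± 0.219 CPM in OMO and 3.07 ± 0.240 in OMO+DOX with overlapping groups (log2FC -0.07 ± 0.10, adjusted p = 0.526). Both have the element core in their windows. IFIT2 had 8, 3, 13 and 12 counts in OMO and 16, 22, 16 and 24 in OMO+DOX. IFIT3 had 6, 5, 10 and 8 counts in OMO and 14, 14, 21 and 20 in OMO+DOX. Neither reached the filter, and the groups of each did not overlap. On the opposite strand, 65 exonic bases of IFIT2 are shared with LIPA, a far more abundant gene with a log2FC of 1.63, so part of its counts may not be its own if counting ignored strand.

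OAS and MX genes were close to the limit of detection in both groups. OAS enzymes make a messenger molecule when they meet double-stranded RNA, and MX proteins are GTPases that trap viral nucleocapsids. OAS3 had 6, 7, 6 and 3 counts in OMO and 18, 10, 26 and 16 in OMO+DOX. MX1 had 2, 0, 4 and 1 counts in OMO and 10, 9, 11 and 8 in OMO+DOX. The ratio of the summed MX1 counts, corrected for library size, was 5.63 (95% exact binomial interval 2.49 to 14.9, counting error only). For both genes the groups did not overlap. OAS1, OAS2, OASL and MX2 had at most 3 counts in any library, which is the floor of 3 counts (at most 0.0748 CPM) under which no difference can be read at this depth.

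The IFITM proteins, which block the entry of enveloped viruses, are encoded by neighbouring genes on chromosome 11 and diverged from one another. IFITM3 was the most abundant member of all, at 109, 113, 135 and 115 CPM in OMO and 119, 103, 130 and 130 CPM in OMO+DOX. Its groups overlapped, with a log2FC of 0.03 ± 0.09 (adjusted p = 0.769). IFITM2 stood at 4.39, 4.10, 5.31 and 4.62 CPM in OMO and at 12.4, 9.17, 12.5 and 12.4 CPM in OMO+DOX. It was higher in all 4 treated libraries, with a log2FC of 1.34 ± 0.12 (adjusted p = 6.59e-07). IFITM1, by contrast, was at 30.5, 27.9, 32.8 and 29.6 CPM in OMO and at 16.1, 14.7, 18.8 and 17.3 CPM in OMO+DOX. Every treated library was below every untreated one (log2FC -0.85 ± 0.08, adjusted p = 9.84e-07).

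These 3 genes are near-identical in parts, RSEM gave them counts that are not whole numbers, which it does where reads match several genes, and IFITM1 and IFITM2 share 351 exonic bases on the same strand. Their separate values are therefore uncertain. Their summed level was 153 ± 13.7 CPM in OMO and 149 ± 15.9 CPM in OMO+DOX (two-sided exact permutation test over 70 divisions, p = 0.714). Within the sum, the share of IFITM1 went from 19.7% to 11.2% and that of IFITM2 from 3.01% to 7.80%, while IFITM3 held 77.2% and 81.0%. Because IFITM3 makes up most of the sum, the test of the sum cannot show how reads were divided between IFITM1 and IFITM2. BST2, which encodes tetherin, a membrane protein that holds budding virions on the cell, was at 68.8, 71.0, 87.1 and 71.8 CPM in OMO and 79.6, 72.6, 85.3 and 86.5 CPM in OMO+DOX. The groups overlapped and the test did not call it (log2FC 0.12 ± 0.08, adjusted p = 0.202). Without OMO replicate 3, the library at 87.1 CPM, the log2FC was 0.20 and passed (adjusted p = 0.00568).

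ISG15, the ubiquitin-like protein that is among the strongest targets of type I interferon, had 0, 4, 5 and 7 counts in OMO and 16, 12, 24 and 20 in OMO+DOX. Every treated library was above every untreated one, and the ratio of the summed counts was 4.67 (95% exact binomial interval 2.69 to 8.60), yet no library reached 1 CPM. USP18, the protease that removes ISG15 and also restrains the type I receptor, had 1, 1, 0 and 0 counts in OMO and 4, 1, 4 and 5 in OMO+DOX, with a ratio of 7.26 (1.67 to 65.9). DTX3L and PARP9, which form a complex that modifies histones and ubiquitin, are transcribed away from a shared start region on chromosome 3. DTX3L rose from 2.33 ± 0.142 to 2.85 ± 0.181 CPM (log2FC 0.29 ± 0.10, adjusted p = 0.0166). With no filter on low counts its adjusted p was 0.0902. PARP9, the member that passed the filter by the least, was at 1.53, 1.32, 1.12 and 1.66 CPM in OMO and 1.38, 1.42, 1.72 and 1.56 CPM in OMO+DOX, overlapping and not called (log2FC 0.12 ± 0.15, adjusted p = 0.468). The 2 genes share 217 exonic bases on opposite strands.

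The remaining effectors held both the second-largest rise and the largest fall. IFI6, which encodes a small membrane protein that protects cells against flaviviruses and mitochondrial apoptosis, stood at 4.16, 4.10, 4.88 and 4.03 CPM in OMO and at 46.4, 40.4, 48.6 and 53.4 CPM in OMO+DOX. The gap between the groups was wider than the spread within either, and the log2FC was 3.46 ± 0.10 (adjusted p = 3.68e-11), or 11-fold. Its window is the one printed with 3 element cores. IFI44, a GTPase-like protein of uncertain role, was at 6.51, 7.26, 6.99 and 6.66 CPM in OMO and at 17.4, 16.6, 16.9 and 15.3 CPM in OMO+DOX. Its groups did not overlap (log2FC 1.27 ± 0.06, adjusted p = 5.91e-09). Its paralogue IFI44L, the next gene on chromosome 1, had only 11, 7, 9 and 6 counts in OMO and 22, 15, 23 and 20 in OMO+DOX, also without overlap.

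SAMD9 and SAMD9L, neighbouring paralogues on chromosome 7 that restrict poxviruses and cell growth, were both higher. SAMD9 was at 1.65, 2.11, 1.52 and 2.20 CPM in OMO and at 4.61, 3.84, 3.62 and 3.46 CPM in OMO+DOX. All treated libraries exceeded all untreated ones (log2FC 1.05 ± 0.14, adjusted p = 3.17e-05). SAMD9L, the member that missed the filter by the least, had 6, 8, 3 and 3 counts in OMO and 57, 37, 49 and 41 in OMO+DOX. Its summed counts differed by a ratio of 9.55 (95% exact binomial interval 6 to 16).

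IFI35, a protein that binds the NMI protein and takes part in inflammatory signalling, stood at 12.7, 13.0, 17.3 and 14.7 CPM in OMO and at 5.28, 5.16, 5.79 and 5.13 CPM in OMO+DOX. It fell in every treated library, 2.69-fold (log2FC -1.43 ± 0.10, adjusted p = 1.27e-07), the largest fall among the members. EPSTI1, an epithelial-stromal interaction protein, had 1, 1, 0 and 0 counts in OMO and 15, 20, 31 and 19 in OMO+DOX, and the ratio of its summed counts was 44.1 (95% exact binomial interval 11.8 to 370). ISG20, an exonuclease that degrades viral RNA, had between 15 and 22 counts in OMO and between 24 and 46 in OMO+DOX, and the groups overlapped once library size was taken into account. The counts of IFI27, of RSAD2, which encodes viperin, and of its neighbour CMPK2 overlapped between the groups. IFI27 had 27 to 32 counts in OMO and 18 to 36 in OMO+DOX, RSAD2 had 7 to 15 and 4 to 11, and CMPK2 had 24 to 46 and 37 to 45. XAF1, a pro-apoptotic interferon target, had 0 counts in all 8 libraries.

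**Figure D3:**
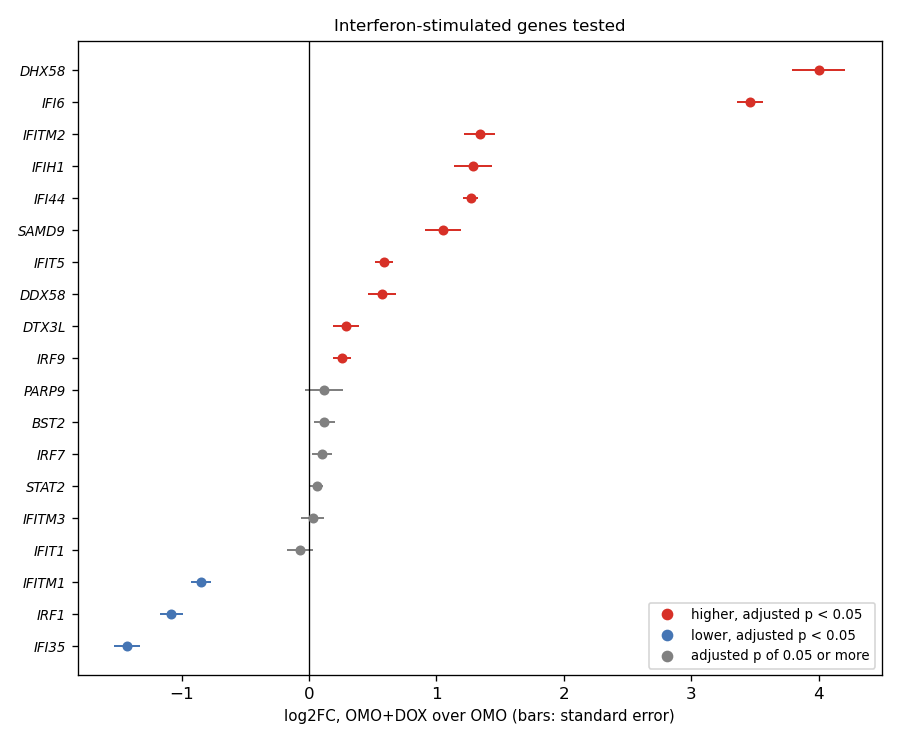
Difference between OMO+DOX and OMO as log2FC (x axis) with its standard error (bars) for the 19 members tested (y axis), in order of size and coloured by the result of the test. DHX58 and IFI6 lie at 4.00 and 3.46, apart from the other 8 members that rose, which reach at most 1.34.

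Nearly as many members as were tested, 18 of the 37, fell below the filter, and among them are ISG15, MX1, OAS1, IFIT3 and RSAD2, which are usual readouts of an interferon response. Of these 18, 17 had a count in some library, and 9 had every OMO+DOX library above every OMO library in CPM. For USP18, 1 of the 9, this order rests on library size, since its groups meet at 1 count. Among the 21659 genes with a count that failed the same filter, 9.98% were higher in this way. That set takes in every such gene with a count in any library, so it was not matched to the members by level. When all genes with a count were tested, 10 of the 17 were called higher and 0 lower (edgeR, adjusted p below 0.05, with 0 lower also at an unadjusted p below 0.05), against 10.7% and 6.82% of the genes that failed the filter. These 10 are the 9 and ISG20. Among the members tested, 10 were higher without overlap and 3 lower without overlap, where 36.3% and 35.4% of all genes tested were. The summed level of the 18 was 2.53 to 3.09 CPM over the OMO libraries and 5.30 to 6.74 CPM over the OMO+DOX libraries, so the rises left these genes at a low level.

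**Figure D4:**
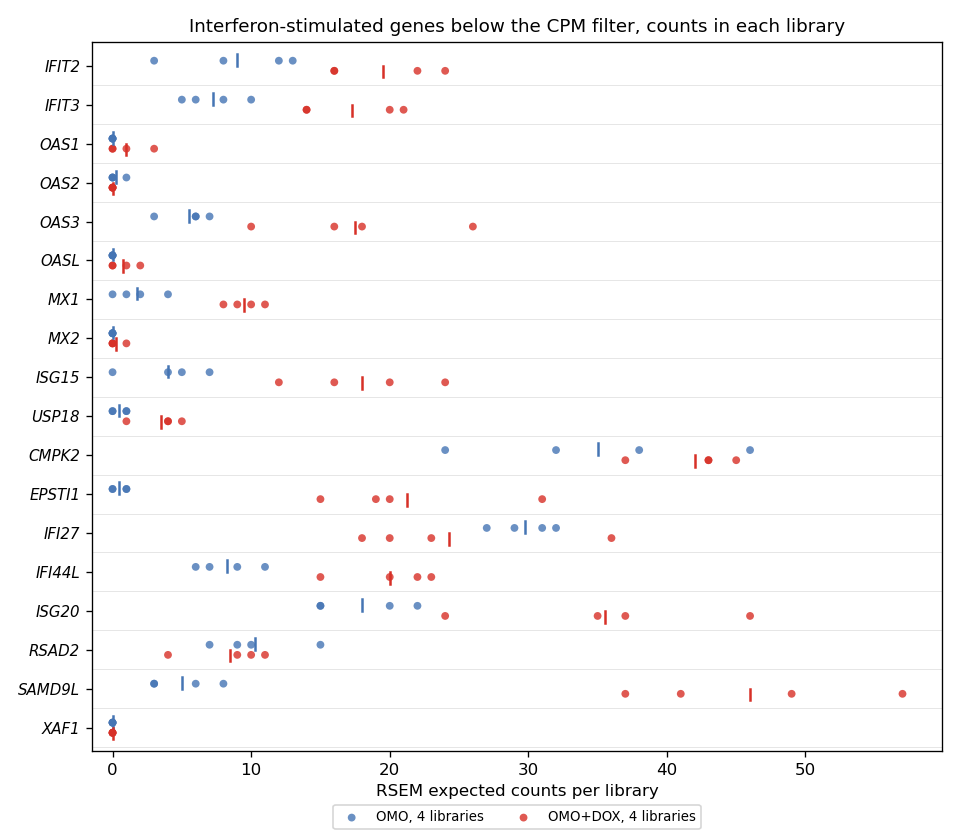
RSEM expected counts per library (x axis, not scaled for library size) of the 18 members below the filter (y axis), with 1 point per library and a vertical tick at the mean of each group of 4. SAMD9L and EPSTI1 are farthest apart, at 37 to 57 counts against 3 to 8 and at 15 to 31 against 0 to 1, while OAS1, OAS2, OASL, MX2 and XAF1 lie at or near 0 in both groups.

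The genes upstream of the members were read from lists of the pathway's parts. None of the 14 interferon genes listed passed the filter. IFNL1, a type III interferon, had 0 counts in all 4 OMO libraries and 38, 22, 23 and 30 in OMO+DOX, at least 9.73-fold higher against a floor of 3 counts per library, and was singled out after its values were seen. The other 13 had at most 2 counts in any library, and 6 of the 14 had none in all 8. Thus IFNB1 was at 0 counts in 7 libraries and 1 count in the other.

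All 11 receptors, kinases and STATs listed were tested, with 5 higher and 3 lower, beside the same 38.5% and 38.1% of all genes. JAK2, a kinase of the interferon gamma receptor, had the largest log2FC, from 2.53, 2.50, 1.97 and 2.98 CPM in OMO to between 8.61 and 10.4 CPM in OMO+DOX (1.95 ± 0.12, adjusted p = 2.53e-08). IFNGR1, the ligand-binding chain of that receptor, went the other way, from 72.4, 70.8, 68.8 and 69.9 CPM to 45.9, 46.8, 44.8 and 44.8 CPM (log2FC -0.63 ± 0.04, adjusted p = 4.97e-08). Neither gene's groups overlapped. IFNAR1, a chain of the type I receptor, rose by a log2FC of 0.29 ± 0.05 (adjusted p = 4.07e-04). Its partner IFNAR2 did not pass (0.17 ± 0.09, adjusted p = 0.0948), but did without OMO+DOX replicate 1 (0.24, adjusted p = 0.0178). IL10RB, which is shared by the type III receptor, rose by 0.34 ± 0.08. IFNLR1, the other chain of the type III receptor, was not called (0.10 ± 0.07, adjusted p = 0.227). The kinase JAK1 rose by 0.32 ± 0.05, while TYK2 was not called (-0.06 ± 0.05, adjusted p = 0.274).

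Of the 23 genes listed for nucleic acid sensing and its adaptors, 17 were tested, 5 were higher and 5 lower, both smaller shares than the 38.5% and 38.1% over all genes tested. TLR7, an endosomal sensor of single-stranded RNA, fell from 1.98, 1.49, 1.46 and 1.84 CPM to 0.335, 0.324, 0.195 and 0.308 CPM (log2FC -2.54 ± 0.19, adjusted p = 2.12e-07). AIM2, a DNA sensor of the inflammasome, fell as well (log2FC -1.74 ± 0.21, adjusted p = 1.09e-05). TLR7 and AIM2 were low in every library and exceeded 1 CPM only in OMO, so they entered the test through the group where they are high. With no filter on low counts, 22 of the 23 were tested, with 7 higher and 6 lower. Among the 7 were IKBKE and IRF5 (log2FC 2.24 and 2.50), both below the filter and named after their values were seen. IRF3, the factor that the sensors activate, was at 34.2 to 39.6 CPM in the OMO libraries and at 52.5 to 62.3 CPM in the OMO+DOX libraries (log2FC 0.70 ± 0.06, adjusted p = 1.22e-06). MAVS, the mitochondrial adaptor of RIG-I and MDA5, was not called (log2FC -0.09 ± 0.07, adjusted p = 0.243), though it was without OMO replicate 3 (-0.16, adjusted p = 0.00499). STING1, the adaptor of cytosolic DNA sensing, was not called either (log2FC 0.05 ± 0.08, adjusted p = 0.597).

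Of 16 negative regulators tested, 7 were higher and 5 lower, beside 38.5% and 38.1% of all genes tested. SOCS1, an inhibitor of JAK kinases, rose from 0.408, 0.348, 0.590 and 0.448 CPM to 1.48, 1.10, 1.27 and 1.25 CPM (log2FC 1.51 ± 0.18, adjusted p = 1.01e-05). PIAS3 and PIAS2, SUMO ligases that restrain STAT proteins, rose by 1.10 ± 0.05 and 0.81 ± 0.04 on the log2 scale. Among the 5 that fell, named after their values were seen, were PCBP2 (log2FC -0.67 ± 0.05), which promotes the breakdown of MAVS, the SUMO ligase PIAS1 (-0.39 ± 0.06) and the phosphatase PTPN1 (-0.39 ± 0.04). Among 20 NF-kB targets listed, 10 were tested, 3 of them higher and 6 lower, against the same 38.5% and 38.1%. NFKB1 rose by 1.59 ± 0.05 and BIRC3 by 2.03 ± 0.18, while BCL3 had a log2FC of -0.89 ± 0.11. SOCS1 and BIRC3 exceeded 1 CPM in OMO+DOX libraries alone.

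A further list of 60 interferon targets, of which 5 also stand in the lists of sensors, receptors or regulators, gave 44 genes tested. Of these, 24 were higher and 9 lower, with a median log2FC of 0.24, and 6 passed the limits of an FDR below 0.001 and a log2FC above 2. Over all genes tested, 38.5% were higher, 38.1% lower and 4.38% past those limits. Of the 6, GBP2, TRANK1, TRIM22 and DDX60 exceeded 1 CPM in no OMO library and entered the test only through OMO+DOX. GBP2, a guanylate-binding protein that attacks the vacuoles of pathogens, had 4, 7, 2 and 7 counts in OMO and 889, 745, 1024 and 827 in OMO+DOX. Nearly absent in untreated cells, it had a log2FC of 7.46 ± 0.16 (adjusted p = 4.37e-12). TRANK1, a large helicase-like protein, went from 0.265, 0.174, 0.122 and 0.224 CPM to 14.4, 12.6, 13.5 and 12.8 CPM (log2FC 6.07 ± 0.14, adjusted p = 8.99e-12). DDX60L, a helicase-like relative of the RNA sensors, went from 1.53, 1.49, 1.04 and 1.39 CPM to 26.5, 27.1, 23.4 and 22.5 CPM (log2FC 4.19 ± 0.11, adjusted p = 2.77e-11). The groups of all 3 lay far apart.

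The other three past those limits, named after their values were seen, were TRIM22 (log2FC 3.35), DDX60 (2.84), which lies next to DDX60L on chromosome 4, and APOL2 (2.16). GBP1, the neighbour of GBP2 on chromosome 1, was higher by 1.02 ± 0.04, and GBP3 and GBP4 had at most 5 counts, after rounding, in any library. GBP5, below the filter and named after its values were seen, had 1, 0, 1 and 3 counts in OMO and 28, 8, 24 and 20 in OMO+DOX. Lower on this list were CXCL11, a chemokine (log2FC -1.20 ± 0.14), TRIM14 (-1.02 ± 0.06) and ADAR, the enzyme that edits double-stranded RNA (-0.62 ± 0.05), among others. These were also named after their values were seen.

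**Figure D5:**
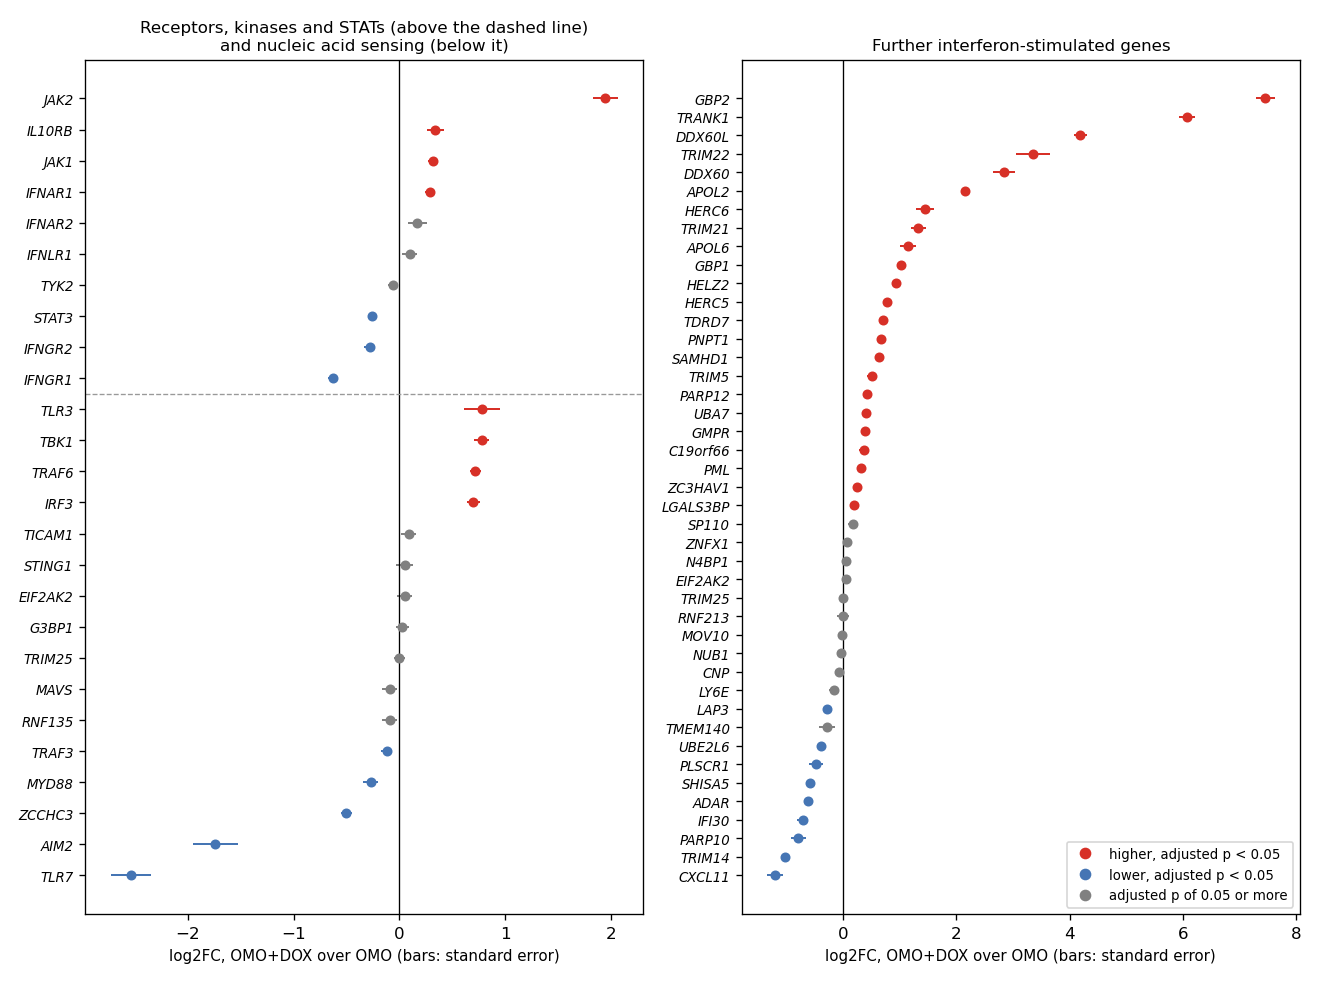
Difference between OMO+DOX and OMO as log2FC (x axes) with its standard error (bars), for genes tested of the lists of receptors, kinases and STATs (left, above the dashed line), nucleic acid sensing (left, below it) and further interferon-stimulated genes (right), coloured by the result of the test. On the left, genes lie on both sides of 0, from -2.54 to 1.95; on the right, GBP2, TRANK1 and DDX60L lie at 7.46, 6.07 and 4.19, and the 9 lower genes reach no further than -1.20.

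Several values of the libraries as a whole bear on these results. Total counts ranged from 46592947 to 54020506 in OMO and from 38390696 to 49249167 in OMO+DOX. MYC RNA was called higher, with a log2FC of 0.26, though its groups overlapped. Reads of the OMOMYC transgene cannot be told apart from it in counts per gene. CAD and NCL, both MYC targets, had log2FCs of -0.48 and -0.44, each lower without overlap. The medulloblastoma marker OTX2 was at 1029 to 1071 CPM in OMO and 508 to 512 in OMO+DOX. Of 8 lineage markers listed, all 6 tested were lower, where 38.1% of all genes tested were. The summed level of the 8 was 1381 to 1447 CPM against 638 to 652, most of it OTX2. EOMES and ZIC2, the other two, were below the filter and went the other way: with no filter on low counts their log2FCs were 1.53 and 1.95 (adjusted p = 1.78e-04 and 4.52e-05). None of 10 immune cell markers passed the filter. Their summed level was 1.19 to 1.38 CPM in OMO and 1.32 to 1.64 CPM in OMO+DOX, with CD3E and SPI1 at 0 in all OMO libraries and at no more than 2 counts in the others. Among 10 fibroblast and endothelial markers, 5 were tested, with 3 higher and 1 lower, beside 38.5% and 38.1% of all genes tested. The summed level of the 10 was 27.6 to 28.3 CPM against 27.8 to 33.2. Most of that sum is COL1A1, which was not called (log2FC 0.09 ± 0.06). The endothelial markers went both ways: CDH5 had 0 counts in all OMO libraries and stood at 1.52 to 2.07 CPM in OMO+DOX, KDR rose by 2.98 ± 0.21 on the log2 scale, and VWF had a log2FC of -1.39 ± 0.13. Below the filter, the fibroblast marker DCN had 21 to 36 counts in OMO and 0 to 1 in OMO+DOX, COL1A2 had 7 to 15 and 0 to 2, and COL3A1 had 0 to 1 and 13 to 18. The part of these shifts in the members' values was not tested.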

How the data were processed

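Polyadenylated RNA of 4 untreated and 4 DOX-treated cultures of D283-OMO cells, which the study's methods call biological replicates, was sequenced from a stranded kit. The authors used Trim Galore for trimming, STAR for alignment to GRCh38 with GENCODE 32 and RSEM for gene counts (versions not stated; whether counting used strand is not stated). The deposited values are expected counts per gene, not normalized; RSEM had already divided reads that match several genes.

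Here expected counts were rounded, and genes above 1 CPM in 4 libraries or more were tested with edgeR 4.0.16 in R 4.3.3 (TMM, quasi-likelihood test with no covariates, Benjamini-Hochberg over all 15222 genes tested). CPM use TMM-scaled library sizes. The standard error is the absolute log2FC over the square root of the F statistic. Intervals use counts summed over the libraries of each group, so they leave out the spread between libraries. They and the floor of 3 counts cover counting error only. The protocol names no molecular identifiers, so copies of 1 molecule may also be counted more than once. Gene positions and overlaps come from GENCODE 29, which holds all 37 members by name. Other steps used Python 3.11.15 with pandas 2.3.3, numpy 2.4.6 and scipy 1.17.1. The fits were tested on simulated data.

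The members and lists were chosen with earlier results of these data known. Values in all libraries are given for members past the stricter limits, the 10 largest called changes, the 3 most abundant, those nearest to the filter and those below it whose groups do not overlap. From the lists come fixed genes and the 3 largest called changes of each, except for items that are not reported here. Alternatives were DESeq2 1.42.0 (size factors, Wald test), library size only, the likelihood ratio test, other filters and thresholds, a replicate block and each library left out.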

Additional observations from a re-analysis of the deposited data

Results flagged for a closer look

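In 4 of the 56 groups of 4 libraries examined, 1 library stood apart from the other three by Dixon's criterion, where chance gives about 1 in 20. In OMO replicate 3, IRF7 was at 11.3 CPM against 9.20 to 9.43 in the other untreated libraries. The same library held IFI6 at 4.88 CPM against 4.03 to 4.16, and BST2 at 87.1 CPM against 68.8 to 71.8. In OMO+DOX replicate 2, IFITM2 was at 9.17 CPM against 12.4 to 12.5. Without OMO replicate 3, IRF7 and BST2 were called higher, as the comparison above gives, and IFI6 and IFITM2 stayed called under every alternative run.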

How the results depend on the processing

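The members' calls followed the filter on low counts. With no filter 36 members were tested, 19 were higher, 6 passed the stricter limits upward and the median log2FC was 1.02. With filterByExpr of edgeR these were 30 tested, 18, 4 and 0.56, and with above 1 CPM required in over 4 libraries 17 tested, 8, 1 and 0.13, since DHX58 and IFIH1 then drop out. An absolute log2FC above 1 gave 6 members up and 2 down. With library sizes alone replacing TMM, the median was 0.39, but the median of all genes also moved to 0.14 and 60.3% of all calls were higher, against 50.3%. STAT2 (0.19), IRF7 (0.23), BST2 (0.25) and IFNAR2 (0.29) then passed. Among the lists, 1 interferon ligand (IFNL1) was called higher with no filter and 1 with filterByExpr, 3 sensing genes were lower with library size only and 2 under the filter of over 4 libraries, and 6 NF-kB targets were higher with no filter. Leaving out each library in turn gave 10 to 12 members higher, 3 lower and medians of 0.22 to 0.29. Of 712 comparisons for the 45 genes that the naming rule gave, 703 kept direction and call, 8 gained a call, 1 (DTX3L) lost it and none reversed. Same-numbered libraries of the groups had correlations of their deviations from the group means of 0.157, 0.144, 0.241 and -0.176. Their mean was 0.0913, against -0.033 for libraries with different numbers. The numbers were not taken to pair the libraries, though these values do not settle it. With the replicate block 10 members were higher, 3 lower, and 11805 genes were called in all. At this depth a gene under 3 counts per library cannot be compared.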
